A study of Arabidopsis thaliana with 12 samples.

Results

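The quiescent centre and ground tissue factors described here are 7 transcription factor genes of the Arabidopsis thaliana root, chosen by gene identifier from the 37884 genes counted. They are the homeodomain gene WOX5 (AT3G11260), the R2R3 MYB gene BRAVO (AT5G17800), the GRAS genes SHR (AT4G37650) and SCR (AT3G54220), and the zinc finger genes JKD (AT5G03150), MGP (AT1G03840) and NUC (AT5G44160). All 7 passed the filter for testing, a mean of 10 normalized counts or more over the 12 libraries, as did 23375 genes in all.

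The messenger RNA came from roots of 4-day-old seedlings, with 3 libraries for each of 4 genotypes. ERF115OX carried 35S:ERF115, ERF114OX carried 35S:ERF114, ERF115-SRDX carried 35S:ERF115-SRDX, and the unmodified accession Col-0 was the wild type (WT). ERF115 and ERF114 are closely related AP2/ERF transcription factors, and SRDX is a short repression motif which, fused to an activator, lets the fusion protein repress the genes it binds. The 35S promoter is active in most plant tissues, so the transgenes are not limited to the cells in which the endogenous genes act. The labels do not say how many independent transgenic lines were used, or whether plants for the 3 libraries of each genotype were grown apart. The p-values therefore rest on the spread between libraries, and that spread may be technical. The series asked which genes lie downstream of ERF115 and ERF114 in roots.

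The quiescent centre is a small group of rarely dividing cells at the root tip that keeps the surrounding stem cells undifferentiated. WOX5 marks these cells and acts from them on the neighbouring columella stem cells, and BRAVO holds back their divisions under the control of brassinosteroid signalling. SHR is transcribed in the stele, and its protein moves out by one cell layer, where it meets SCR. Together they specify the endodermis and the quiescent centre and drive the division that separates endodermis from cortex. JKD, MGP and NUC belong to the INDETERMINATE DOMAIN (IDD) family of zinc finger proteins, several of which bind SHR and SCR. JKD helps to confine SHR movement and to sustain SCR transcription, and MGP and NUC are direct targets of SHR and SCR. ERF115 itself is known as a driver of quiescent centre divisions and of stem cell replenishment after damage.

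The libraries held 47242114 to 48343410 reads counted on genes. The deposited values are normalized read counts, that is, reads divided by 1 size factor per library, and 3 reads were worth 2.90 to 3.18 normalized counts. ERF115 averaged 36657 normalized counts in ERF115OX and 85592 in the ERF115-SRDX line, and had 4.86, 23.4 and 561 in the WT libraries, where WT 3 stood apart. All calls of the 7 genes against WT were kept without WT 3. ERF114 averaged 46518 in ERF114OX against 19.6 in WT, so the transgene transcripts go with the titles of the libraries. Markers of root cap, endodermis, cortex and stele were above 0 in every library, as were photosynthetic genes of the shoot. The summed level of 21 photosynthetic genes was 379020 to 502151 normalized counts in ERF115OX, 155494 to 528955 in ERF114OX, 11155 to 168395 in ERF115-SRDX and 602103 to 1232660 in WT. Within their groups, ERF114OX 1 was the low library and ERF115-SRDX 2 the high one. In whole roots, fewer cells of a type and less transcript per cell cannot be told apart, which applies to every value below.

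Changes are log2 differences ± SE of the normalized count plus 1, from 1 limma fit over the 12 libraries, with Benjamini-Hochberg adjustment over all genes tested and a call at an adjusted p under 0.05. In ERF115OX against WT, 4 of the 7 genes were called, BRAVO and SHR higher and JKD and MGP lower, where 32.1% of all genes tested were called, 16.4% higher and 15.7% lower. In ERF114OX against WT the same 4 genes were called in the same directions, against 37.1% of all genes, 17.5% higher and 19.6% lower. In ERF115-SRDX against WT, 3 were called, BRAVO and MGP higher and NUC lower, against 50.1% of all genes, 23.4% higher and 26.6% lower. With 7 genes these counts are read only beside that background, and the individual values follow. All 3 comparisons share the WT libraries.

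**Figure D1:**
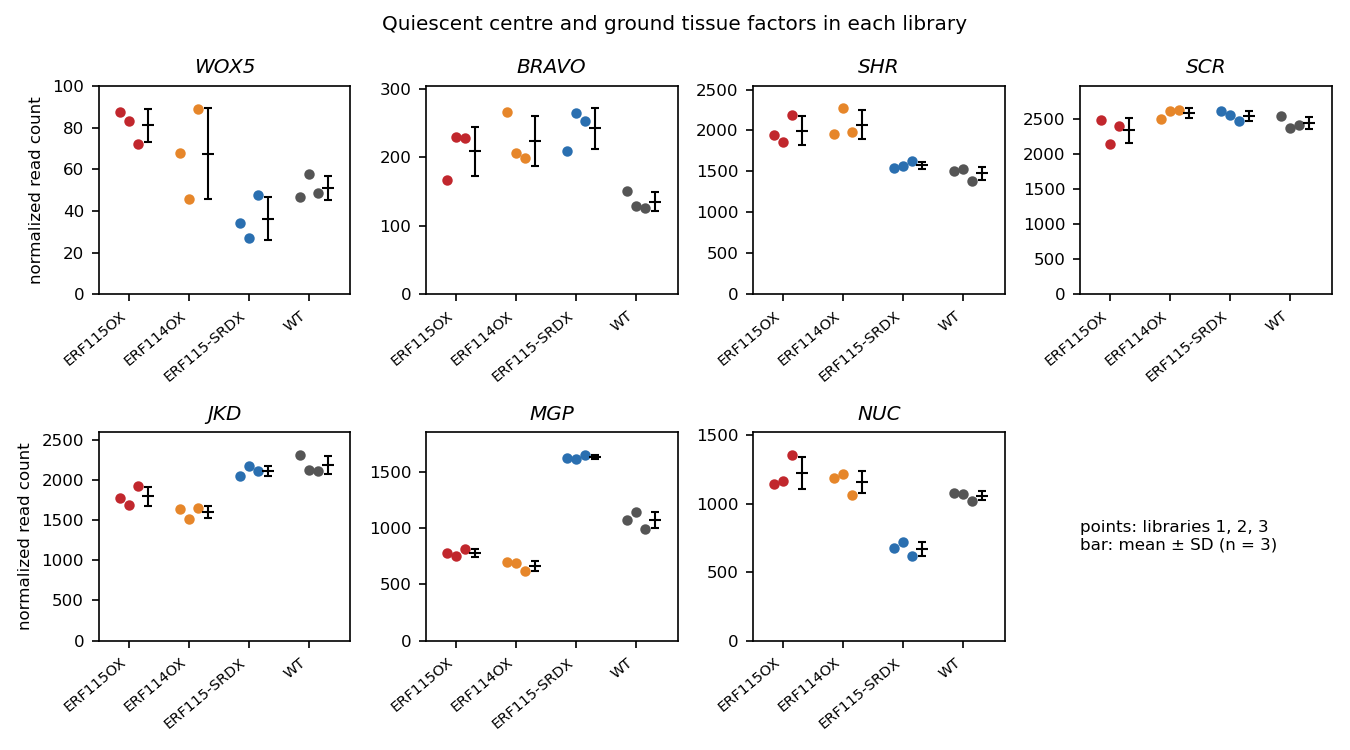
Normalized read counts (y axis, from 0) of the 7 genes in the 3 libraries of each genotype (x axis), with the mean and SD of each group as a bar beside the points. MGP separates the genotypes most clearly, with ERF115OX at 749 to 819, ERF114OX at 616 to 699, ERF115-SRDX at 1619 to 1653 and WT at 996 to 1144, while the 4 groups of SCR lie close together.

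**Figure D2:**
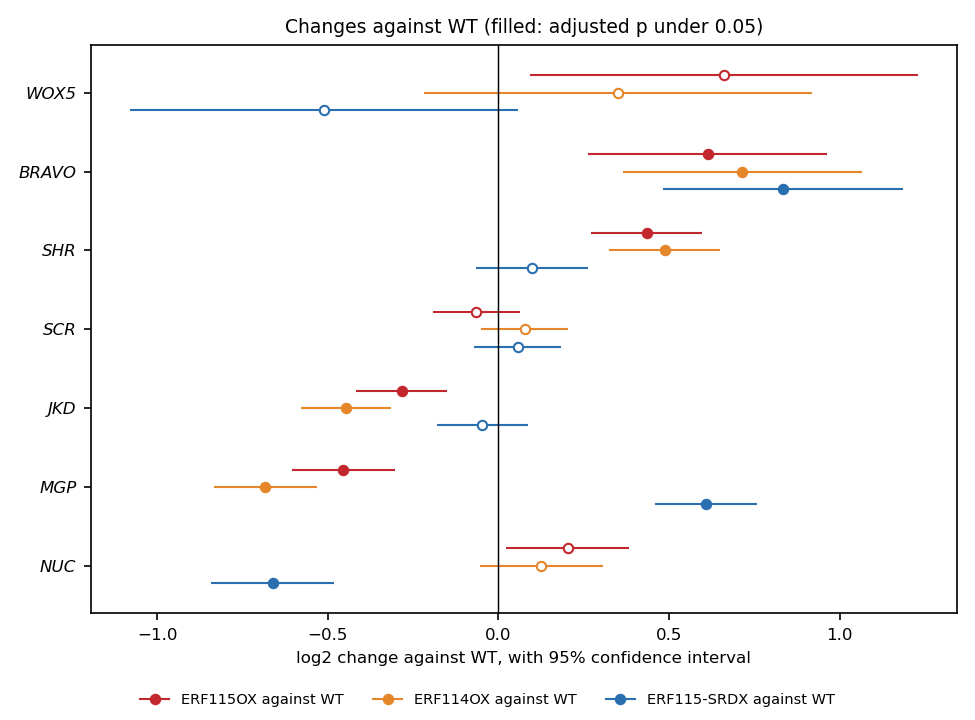
Log2 change of each gene against WT (x axis) with its 95% confidence interval, for the 3 transgenic genotypes, where filled points passed an adjusted p under 0.05. BRAVO lies above 0 in all 3 lines, SHR above and JKD below 0 in both overexpression lines, and MGP on opposite sides of 0 in the overexpression lines and in ERF115-SRDX.

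Of the quiescent centre genes, WOX5 had 26 to 87 reads per library. Its level was 87.6, 83.4 and 72.3 normalized counts in ERF115OX, 67.8, 45.5 and 89.2 in ERF114OX, 34.3, 27.2 and 47.5 in ERF115-SRDX, and 46.7, 57.6 and 48.8 in WT. All 3 ERF115OX libraries lay above all 3 WT libraries, ERF114OX ran from just below the WT range to above it, and ERF115-SRDX overlapped WT only through its replicate 3. No change against WT passed the threshold. The change was 0.66 ± 0.26 in ERF115OX (limma adjusted p = 0.072), with a 95% confidence interval of 0.09 to 1.23, and 0.35 ± 0.26 in ERF114OX (limma adjusted p = 0.32). In ERF115-SRDX it was -0.51 ± 0.26 (limma adjusted p = 0.13). The ERF115OX value sat near the threshold and passed it with quantile normalization (0.041), in a fit of only the groups compared (0.0305) and without ERF114OX 2 (0.046), and the ERF115-SRDX value passed without ERF115-SRDX 3, where it was -0.72 (0.0495).

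The ends of the range were called for WOX5 when the lines were set against each other. It was higher in ERF115OX than in ERF115-SRDX by 1.17 ± 0.26 (limma adjusted p = 0.0021), a 2.25-fold difference, with no overlap between the libraries. It was higher in ERF114OX than in ERF115-SRDX by 0.86 ± 0.26 (limma adjusted p = 0.014), but the groups overlapped, and the call was lost without ERF114OX 3 (adjusted p = 0.069) or without ERF115-SRDX 2 (adjusted p = 0.056). The group means ran from ERF115OX through ERF114OX and WT to ERF115-SRDX, and no neighbours in that order differed beyond the threshold.

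BRAVO, a repressor of quiescent centre division, was higher in all 3 transgenic lines. It had 167, 229.8 and 228 normalized counts in ERF115OX, 265, 206.5 and 198 in ERF114OX, 209, 264 and 253 in ERF115-SRDX, and 151, 129 and 125.5 in WT. Every transgenic library exceeded the highest WT library, and the 3 lines overlapped one another. The gene rose by 0.61 ± 0.16 in ERF115OX (1.53-fold, limma adjusted p = 0.013), by 0.71 ± 0.16 in ERF114OX (1.64-fold, limma adjusted p = 0.0048) and by 0.83 ± 0.16 in ERF115-SRDX (1.78-fold, limma adjusted p = 0.00081). Without ERF115OX 2 or without ERF115OX 3 the adjusted p of the ERF115OX change was 0.054 or 0.052. Between the lines, the differences of BRAVO ran from -0.22 to -0.10 and none was called. The difference between ERF115OX and ERF115-SRDX had a 95% confidence interval of -0.57 to 0.13.

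BRAVO and WOX5 can also be set side by side within each library. The ratio of WOX5 to BRAVO normalized counts was 0.401 ± 0.109 in ERF115OX, 0.309 ± 0.124 in ERF114OX, 0.152 ± 0.044 in ERF115-SRDX and 0.382 ± 0.069 in WT (SD, n = 3 each). All 3 ERF115-SRDX libraries, at 0.103 to 0.188, were below the lowest library of any other group, at 0.221. These ratios follow one pair of genes across libraries and were not tested.

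SHR, the mobile GRAS factor made in the stele, was higher in both overexpression lines. It had 1940.1, 1855 and 2194 normalized counts in ERF115OX, 1954, 2271 and 1987 in ERF114OX, 1542, 1566 and 1623 in ERF115-SRDX, and 1508, 1529.6 and 1387 in WT. The overexpression libraries all lay above every ERF115-SRDX and WT library, and those of ERF115-SRDX lay just above those of WT without overlap. SHR rose by 0.43 ± 0.08 in ERF115OX (1.35-fold, limma adjusted p = 0.0012) and by 0.49 ± 0.08 in ERF114OX (limma adjusted p = 0.00050). In ERF115-SRDX the change was 0.10 ± 0.08 (limma adjusted p = 0.31), with a 95% confidence interval of -0.07 to 0.26. The lines themselves differed, since SHR was higher than in ERF115-SRDX by 0.34 ± 0.08 in ERF115OX (limma adjusted p = 0.0021) and by 0.39 ± 0.08 in ERF114OX (limma adjusted p = 0.00076). ERF115OX and ERF114OX differed by -0.05 (95% confidence interval -0.22 to 0.11).

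The summed level of 8 stele markers was 13797 to 14417 normalized counts in ERF115OX, 15331 to 15753 in ERF114OX, 13401 to 13748 in ERF115-SRDX and 13484 to 13793 in WT. Of these markers, 1 was called higher and 2 lower in ERF115OX, 3 higher in ERF114OX, and 2 higher and 4 lower in ERF115-SRDX. Among all genes tested, 16.4, 17.5 and 23.4% were called higher and 15.7, 19.6 and 26.6% lower in these lines. The stele sum gives most weight to abundant genes. ATHB8 averaged 3880 normalized counts in ERF114OX against 2114 in WT, and WOL 5345 in ERF115-SRDX against 3921 in WT. Both were named after their values were seen. With each gene weighted equally, the mean log2 level was 9.56 ± 0.03 (SD) in ERF115-SRDX against 9.82 ± 0.03 in WT. It was 9.86 ± 0.05 for ERF115OX and 10.05 ± 0.04 for ERF114OX. None of the 8 markers was at 0 in any library. Their part in the SHR values was not tested.

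SCR, which meets SHR in the endodermis and the quiescent centre, was called in none of the 6 comparisons in the limma fit, nor by edgeR or DESeq2. It had 2483, 2141 and 2395 normalized counts in ERF115OX, 2496, 2614.5 and 2627 in ERF114OX, 2609.9, 2552 and 2466.5 in ERF115-SRDX, and 2543, 2375 and 2414 in WT. Each transgenic group overlapped WT. The change was -0.07 ± 0.06 in ERF115OX (limma adjusted p = 0.43), 0.08 ± 0.06 in ERF114OX (limma adjusted p = 0.32) and 0.06 ± 0.06 in ERF115-SRDX (limma adjusted p = 0.45). The 95% confidence intervals were -0.19 to 0.06, -0.05 to 0.21 and -0.07 to 0.18, in the same order. Of all genes tested, 82.4, 79.9 and 86.9% had a change against WT at least as large in these comparisons. The ratio of SHR to SCR normalized counts was 0.855 ± 0.068 in ERF115OX, 0.803 ± 0.059 in ERF114OX, 0.621 ± 0.034 in the ERF115-SRDX line and 0.604 ± 0.036 in WT (SD, n = 3 each).

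Among the zinc finger genes, JKD, a partner of SHR and SCR, was lower in both overexpression lines. It had 1769.9, 1689.7 and 1917.5 normalized counts in ERF115OX, 1639, 1513 and 1647 in ERF114OX, 2053, 2166 and 2109.7 in ERF115-SRDX, and 2311, 2124 and 2108.4 in WT. The ERF114OX libraries were the lowest and did not overlap any other group, and ERF115-SRDX overlapped WT. JKD fell by 0.28 ± 0.06 in ERF115OX (limma adjusted p = 0.0044), to 0.822 of WT, and by 0.45 ± 0.06 in ERF114OX (limma adjusted p = 0.00024), to 0.734 of WT. The change in ERF115-SRDX was -0.05 ± 0.06 (limma adjusted p = 0.56, 95% confidence interval -0.18 to 0.09). Against ERF115-SRDX, JKD was lower by 0.24 ± 0.06 in ERF115OX (limma adjusted p = 0.0054) and by 0.40 ± 0.06 in ERF114OX (limma adjusted p = 0.00013).

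MGP, a direct target of SHR and SCR, moved in opposite directions in the overexpression and repressor lines. It had 776, 749 and 819 normalized counts in ERF115OX, 699, 687 and 616 in ERF114OX, 1623, 1619 and 1653 in ERF115-SRDX, and 1075, 1144 and 996 in WT. None of the 4 groups overlapped another. MGP fell by 0.45 ± 0.07 in ERF115OX (limma adjusted p = 0.00059), to 0.730 of WT, and by 0.68 ± 0.07 in ERF114OX (limma adjusted p = 3.4e-05), to 0.623 of WT. It rose by 0.61 ± 0.07 in ERF115-SRDX (1.52-fold, limma adjusted p = 1.1e-05). The lines were further apart from each other, as MGP was lower than in ERF115-SRDX by 1.06 ± 0.07 in ERF115OX (limma adjusted p = 5.4e-08) and by 1.29 ± 0.07 in ERF114OX (limma adjusted p = 9.0e-09). Of all genes tested, 12.9% differed between ERF114OX and ERF115-SRDX by at least as much. Between the 2 overexpression lines the difference was 0.23 ± 0.07 and did not pass (limma adjusted p = 0.071).

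NUC, also a direct target of SHR and SCR, was lower in ERF115-SRDX. It had 1142, 1166 and 1357.5 normalized counts in ERF115OX, 1186, 1219 and 1064 in ERF114OX, 673, 720.5 and 617 in ERF115-SRDX, and 1080.0, 1073 and 1022 in WT. The ERF115-SRDX libraries were far below all others, and ERF114OX overlapped WT. NUC fell by 0.66 ± 0.08 in ERF115-SRDX (limma adjusted p = 2.4e-05), to 0.633 of WT. The change was 0.20 ± 0.08 in ERF115OX (limma adjusted p = 0.079) and 0.13 ± 0.08 in ERF114OX (limma adjusted p = 0.26). The ERF115OX value, whose libraries did not overlap those of WT, passed with quantile normalization (adjusted p = 0.039). NUC was higher than in ERF115-SRDX by 0.86 ± 0.08 in ERF115OX (limma adjusted p = 1.9e-06) and by 0.79 ± 0.08 in ERF114OX (limma adjusted p = 4.8e-06).

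**Figure D3:**
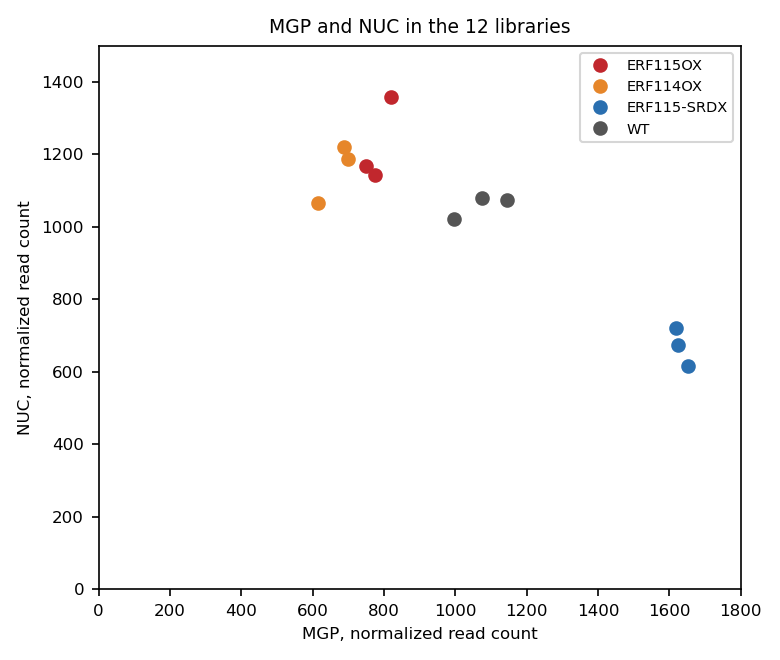
NUC (y axis) against MGP (x axis), both as normalized read counts from 0, with 1 point per library and 1 colour per genotype. The ERF115-SRDX libraries lie at the lower right, with high MGP and low NUC, and the overexpression libraries at the upper left. WT lies between them in MGP and overlaps ERF114OX in NUC.

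MGP and NUC, both direct targets of SHR and SCR, went opposite ways in the repressor line. The ratio of MGP to NUC normalized counts was 0.642 ± 0.038 in ERF115OX, 0.577 ± 0.013 in ERF114OX, 2.45 ± 0.22 in ERF115-SRDX and 1.01 ± 0.05 in WT (SD, n = 3 each). Its range was 0.604 to 0.679 in ERF115OX, 0.564 to 0.589 in ERF114OX, 2.25 to 2.68 in ERF115-SRDX and 0.975 to 1.07 in WT. No group overlapped another in this ratio, which is a description of one pair of genes and was not tested.

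The high photosynthetic library of the repressor line, ERF115-SRDX 2, was close to the others of its line in MGP but was the lowest of all 12 libraries in WOX5, at 27.2 normalized counts. It had 1619 normalized counts of MGP, against 1623 and 1653 in the other libraries of the line, and 720.5 of NUC, against 673 and 617. With ERF115-SRDX 2 as the only library of the line, the change against WT was 0.60 for MGP, -0.55 for NUC and 0.97 for BRAVO. That fit takes its spread from the other groups alone, so only the size of the change is given. The WOX5 change was -0.88 in that fit. It was -0.33 without ERF114OX 1 and ERF115-SRDX 2 and was not called (limma adjusted p = 0.39). Without ERF114OX 1 and ERF115-SRDX 2, all calls of the 7 genes against WT were kept.

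Set directly against each other, ERF115OX and ERF114OX differed in 0 of the 7 genes by limma, where 6.90% of all genes tested were called, 4.77% higher and 2.13% lower. At an unadjusted p under 0.05, 3 of the 7 differed, as did 21.7% of all genes tested. SCR was lower in ERF115OX by 0.14 (unadjusted p = 0.031), and JKD and MGP were higher by 0.16 (unadjusted p = 0.020) and 0.23 (unadjusted p = 0.0062). In edgeR and in DESeq2 on recovered reads, the count was also 0. Each overexpression line differed from ERF115-SRDX in 5 of the 7 genes, with WOX5, SHR and NUC higher and JKD and MGP lower. Of all genes tested, 56.0% were called for ERF115OX (29.6% higher and 26.4% lower) and 55.9% for ERF114OX (30.0% higher and 26.0% lower).

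The other IDD genes were mostly lower in the overexpression lines, as JKD and MGP were. Of 13 IDD genes outside the 7 factors, 11 were tested. In ERF115OX 7 fell, with a median log2 change of -0.52, and in ERF114OX 7 fell, with a median of -0.67. In ERF115-SRDX 3 fell, with a median of -0.22, and 5 fell in edgeR, in DESeq2 and without WT 2. The count that rose was 0 in each line by limma, by edgeR and by DESeq2, and 0 also at an unadjusted p under 0.05. Over all genes tested, the medians were -0.001, -0.014 and -0.001. Of these genes, 16.4, 17.5 and 23.4% were called higher and 15.7, 19.6 and 26.6% lower in these comparisons. At an unadjusted p under 0.05, 5114, 5114 and 6122 of the 23375 genes tested rose. The summed level of the 13 IDD genes was 8828, 7867 and 9139 normalized counts in WT. It ranked the libraries as the photosynthetic sum did within WT and within ERF114OX, but not within ERF115OX. In the ERF115-SRDX line, library 2 was the highest in both sums. The part of shoot tissue in the IDD values was not tested.

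**Figure D4:**
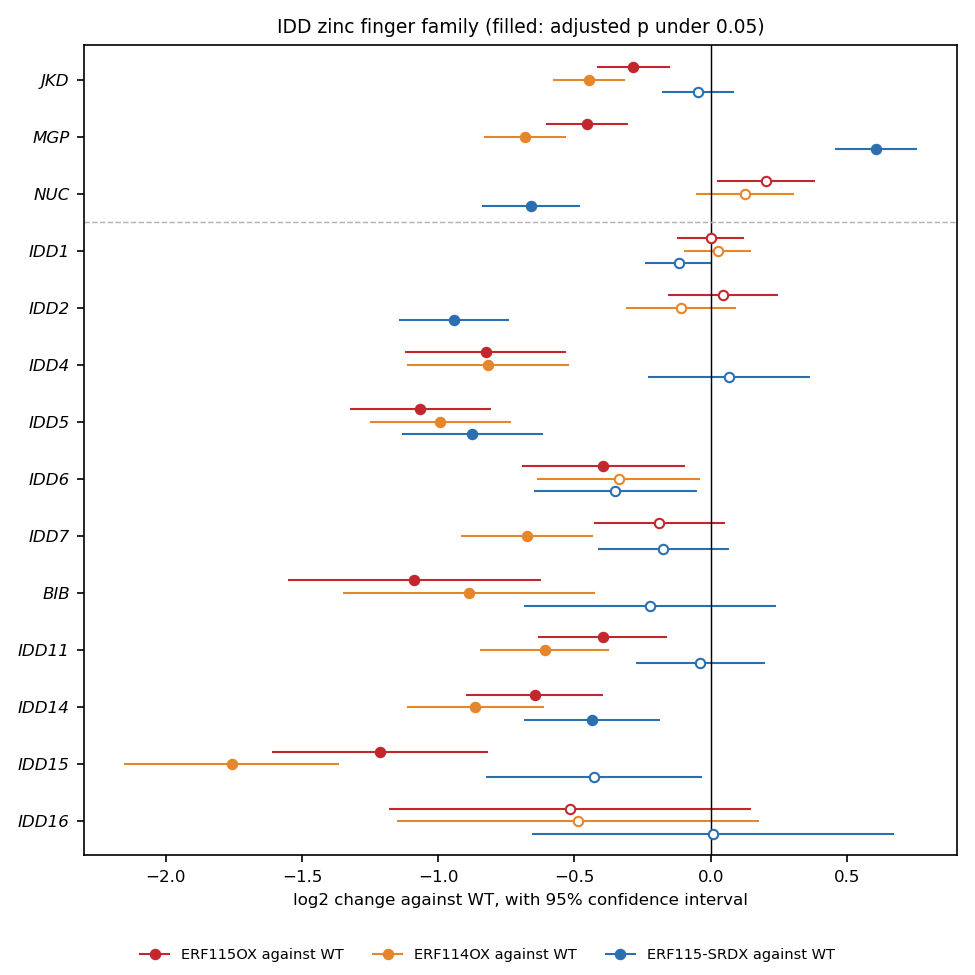
Log2 change against WT (x axis) with 95% confidence interval of the IDD family, with JKD, MGP and NUC above the dashed line and the 11 other tested genes below it; filled points passed an adjusted p under 0.05. Below the line every call lies left of 0, and IDD2 was called in ERF115-SRDX alone.

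BIB, the close relative of JKD that acts with it to retain SHR in the ground tissue, had 117, 94.6 and 144 normalized counts in ERF115OX, 136.5, 147 and 120.3 in ERF114OX, 185, 266 and 197 in ERF115-SRDX, and 259.5, 186 and 319.7 in WT. The overexpression libraries were below all WT libraries, and ERF115-SRDX overlapped WT. BIB fell by 1.09 ± 0.21 in ERF115OX (limma adjusted p = 0.0026) and by 0.89 ± 0.21 in ERF114OX (limma adjusted p = 0.0067). In ERF115-SRDX its change was -0.22 ± 0.21 (limma adjusted p = 0.42). Within ERF115-SRDX and within WT, BIB ranked the 3 libraries as the photosynthetic sum did, with ERF115-SRDX 2 and WT 3 the highest in both, and within the overexpression lines it did not. The part of shoot tissue in the BIB values was not tested.

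IDD4 and IDD5, which also bind SHR and SCR, both fell in the overexpression lines. IDD4 had 367, 346 and 349 normalized counts in ERF115OX, 348, 363 and 358 in ERF114OX, 627, 784 and 580.3 in ERF115-SRDX, and 685, 498.5 and 725 in WT. It fell by 0.83 ± 0.14 in ERF115OX (limma adjusted p = 0.00094) and by 0.82 ± 0.14 in ERF114OX (limma adjusted p = 0.00082), and its change was 0.07 ± 0.14 in ERF115-SRDX. ERF115-SRDX 2 and WT 3 were again the highest libraries of their groups. IDD5 was lower in all 3 lines, by 1.07 ± 0.12 in ERF115OX, 0.99 ± 0.12 in ERF114OX and 0.87 ± 0.12 in the ERF115-SRDX line (limma adjusted p = 8.1e-05, 0.0001 and 4.9e-05), at 427 to 605 normalized counts in the transgenic libraries against 868 to 1124 in WT.

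IDD15, known for shoot gravitropism, had 92.9, 88.9 and 117 normalized counts in ERF114OX against 380.1, 259.5 and 388 in WT, and fell by 1.76 ± 0.18 (limma adjusted p = 4.0e-05). In ERF115OX it fell by 1.21 ± 0.18 (limma adjusted p = 0.00053), and in ERF115-SRDX its change was -0.43 ± 0.18 with no call (limma adjusted p = 0.069). Like BIB, it ranked the libraries of ERF115-SRDX and of WT as the photosynthetic sum did. Its relative IDD14 fell in all 3 lines, by 0.65 ± 0.12, 0.86 ± 0.12 and 0.44 ± 0.12 in ERF115OX, ERF114OX and ERF115-SRDX (limma adjusted p = 0.0015, 0.00020 and 0.0069). IDD2, a partner of DELLA proteins in gibberellin signalling, fell only in ERF115-SRDX by this test, to 434, 386 and 425 normalized counts against 826, 711 and 862.5 in WT (-0.94 ± 0.09, limma adjusted p = 3.1e-06).

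The targets and partners of SHR and SCR did not move as one group. Their list includes the class III HD-ZIP genes PHB, PHV, REV and CNA, which SHR and SCR reach only through microRNAs. Of the 13 genes listed, all tested, 3 rose and 1 fell in ERF115OX, 3 rose and 2 fell in ERF114OX, and 2 rose and 7 fell in ERF115-SRDX. Their median log2 changes were -0.01, -0.003 and -0.22. The shares of all genes tested were 16.4, 17.5 and 23.4% called higher and 15.7, 19.6 and 26.6% called lower, in the same order of lines.

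**Figure D5:**
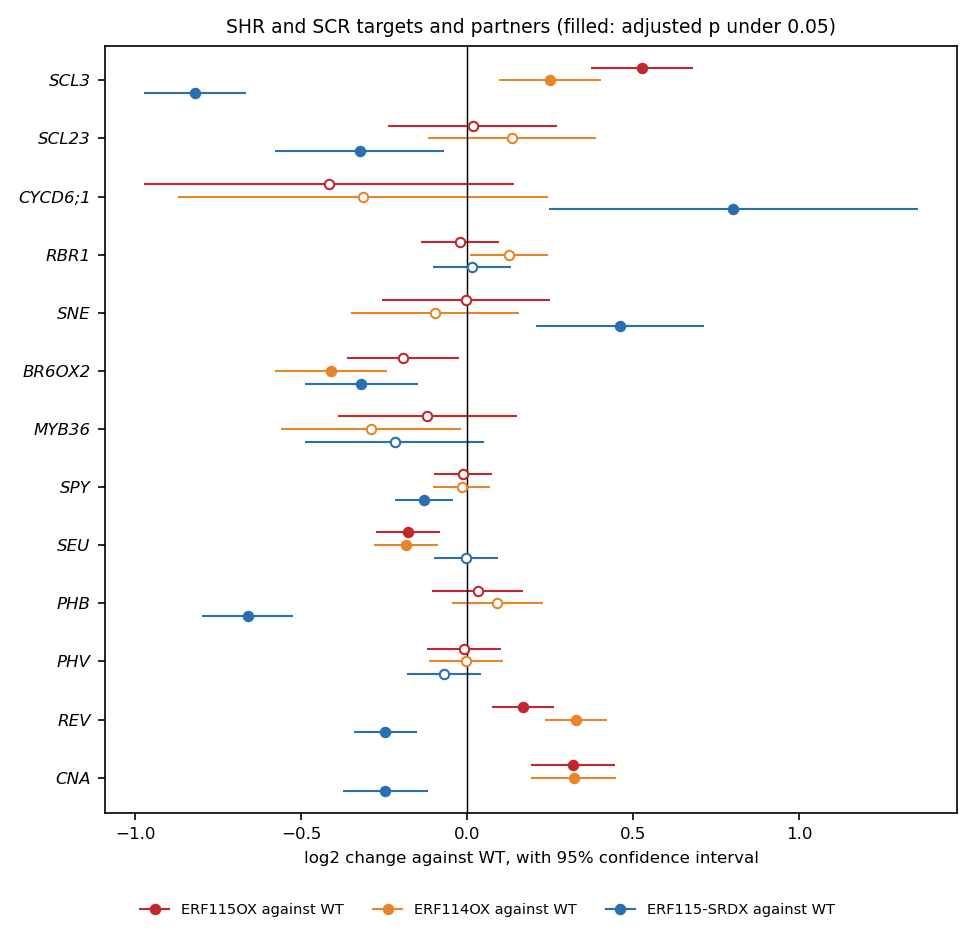
Log2 change against WT (x axis) with 95% confidence interval of 13 targets and partners of SHR and SCR in the 3 transgenic lines, where filled points passed an adjusted p under 0.05. PHB, PHV, REV and CNA are targets only through microRNAs. SCL3, REV and CNA lie right of 0 in the overexpression lines and left of 0 in ERF115-SRDX, and CYCD6;1 was called in ERF115-SRDX alone.

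SCL3, a GRAS gene that SHR and SCR activate directly, had 1206, 1269.8 and 1438 normalized counts in ERF115OX, 1093, 1026 and 1106 in ERF114OX, 515, 487 and 534 in ERF115-SRDX, and 895, 901 and 914 in WT. Its order was that of NUC, with no overlap between WT and any line. SCL3 rose by 0.53 ± 0.07 in ERF115OX (limma adjusted p = 0.00027) and by 0.25 ± 0.07 in ERF114OX (limma adjusted p = 0.016, and 0.056 without ERF114OX 3). It fell by 0.82 ± 0.07 in ERF115-SRDX (limma adjusted p = 9.5e-07).

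CYCD6;1, the D-type cyclin that SHR and SCR switch on for the ground tissue division, had 65.5, 43.7 and 90.9 normalized counts in ERF115OX, 86.2, 59.3 and 63.3 in ERF114OX, 139, 154.6 and 157 in ERF115-SRDX, and 91.4, 66.3 and 104 in WT. It was higher in ERF115-SRDX, as MGP was, by 0.80 ± 0.26 (limma adjusted p = 0.020), but the call was lost without ERF115-SRDX 3 (adjusted p = 0.057) or without WT 2 (adjusted p = 0.082). The changes in ERF115OX and ERF114OX were -0.42 ± 0.26 and -0.32 ± 0.26 and were not called (limma adjusted p = 0.24 and 0.36). RBR1, the retinoblastoma protein that binds SCR, had group means of 2536 in ERF115OX, 2808 in ERF114OX, 2599.9 in ERF115-SRDX and 2575 in WT, with no call. MYB36, which SCR activates for endodermal differentiation, averaged 1009.8, 899 and 941 normalized counts in ERF115OX, ERF114OX and ERF115-SRDX and 1093 in WT, also with no call.

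The class III HD-ZIP genes, whose messenger RNA is restricted in the stele by microRNAs that SHR and SCR activate in the endodermis, were mostly lower in ERF115-SRDX. PHB fell by 0.66 ± 0.06 in that line (limma adjusted p = 2.3e-06), to 2478, 2247 and 2354 normalized counts against 3869.8, 3719.6 and 3603 in WT, and its changes in ERF115OX and ERF114OX were 0.03 and 0.09 with no call. REV rose by 0.17 ± 0.04 in ERF115OX and by 0.33 ± 0.04 in ERF114OX and fell by 0.25 ± 0.04 in ERF115-SRDX (limma adjusted p = 0.012, 0.00019 and 0.00040). CNA rose by 0.32 ± 0.06 in both overexpression lines and fell by 0.25 ± 0.06 in ERF115-SRDX (limma adjusted p = 0.0018, 0.0014 and 0.0035). PHV had a change of -0.07 in ERF115-SRDX and no call. ATHB8, the member of this class in the stele marker list, was named after its values were seen. It rose by 0.69 ± 0.05 in ERF115OX and 0.88 ± 0.05 in ERF114OX and fell by 0.97 ± 0.05 in ERF115-SRDX (limma adjusted p = 7.4e-06, 9.4e-07 and 1.5e-08).

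Markers of the tissues these factors pattern were read in the same fit. As background, 16.4% of all genes tested rose and 15.7% fell in ERF115OX, 17.5 and 19.6% in ERF114OX, and 23.4 and 26.6% in ERF115-SRDX. Of 10 markers of differentiated endodermis, 1 rose in ERF115OX, 1 rose and 1 fell in ERF114OX, and 2 rose and 1 fell in ERF115-SRDX. Their summed level was 34777 to 48531 normalized counts in ERF115OX, 36778 to 42004 in ERF114OX, 36950 to 43459 in ERF115-SRDX and 34536 to 40325 in WT. The cortex markers, only a pair of genes, summed to 1310 to 1802 in ERF115OX, 1383 to 2047 in ERF114OX, 896 to 1011 in ERF115-SRDX and 2087 to 3787 in WT. One of them, AT1G09750, carried most of the sum and was called lower in all 3 lines. The other, CO2, was called lower in ERF115-SRDX, and in the overexpression lines it averaged 309.5 in ERF115OX and 381.5 in ERF114OX, against 330.1 in WT, with no call. In the root cap list, 4 of 5 genes fell in ERF115-SRDX. Their median log2 change was -0.13 in ERF115OX, 0.26 in ERF114OX and -0.56 in the ERF115-SRDX line, and in the overexpression lines 1 gene had an unadjusted limma p under 0.05, higher in ERF114OX, and none passed the adjusted threshold. Of 14 genes of dividing cells, 4 fell in ERF115OX, 1 rose and 3 fell in ERF114OX, and 1 rose in ERF115-SRDX. None of the endodermis, cortex, root cap or dividing cell markers was at 0 in any library, and their part in the values of the 7 factors was not tested.

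Of 14 WOX genes other than WOX5, 7 were tested. Of these, 2 rose and 1 fell in ERF115OX, 4 rose and 1 fell in ERF114OX, and 1 rose and 3 fell in ERF115-SRDX. Among all genes tested, 16.4, 17.5 and 23.4% rose and 15.7, 19.6 and 26.6% fell in these lines. WOX11, a gene of root founder cells, had 97.7, 90.5 and 95.05 normalized counts in ERF115OX, 78.4, 81.5 and 91.3 in ERF114OX, 31.2, 27.2 and 27.7 in ERF115-SRDX, and 58.3, 64.4 and 31.9 in WT. It rose by 0.92 ± 0.23 in ERF115OX (limma adjusted p = 0.011). Its rise of 0.75 in ERF114OX (limma adjusted p = 0.025) was lost without WT 3 (0.086) and without ERF114OX 2 or 3 (0.058 and 0.080), and its fall of 0.76 in ERF115-SRDX (limma adjusted p = 0.016) was lost without WT 1 or 2 (0.065 and 0.073). WOX12, its close relative and the gene next to BRAVO on the opposite strand, averaged 163, 148 and 97.8 normalized counts in ERF115OX, ERF114OX and ERF115-SRDX and 118 in WT, with no call against WT. It was higher than in ERF115-SRDX by 0.74 ± 0.18 in ERF115OX (limma adjusted p = 0.0031) and by 0.61 ± 0.18 in ERF114OX (limma adjusted p = 0.011). WOX7, the closest relative of WOX5, was below the minimum for testing, at 2.07 to 18.7 normalized counts.

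WOX1 had few reads in the overexpression lines. It had 4.03, 0 and 0 normalized counts in ERF115OX and 0, 4.24 and 2.07 in ERF114OX, against 75.8, 25.4 and 37.8 in WT, and was called lower in both (limma adjusted p = 0.0010 and 0.0018). With so few reads the size of the change depends on the pseudocount. In ERF115-SRDX, WOX1 averaged 14.6 normalized counts against 46.3 in WT, without overlap, and was not called (-1.54 ± 0.78, limma adjusted p = 0.12). Of 7 MYB genes related to BRAVO, 4 were tested, and against WT MYB69 alone was called. It had 117, 127 and 134.4 normalized counts in ERF115-SRDX against 48.6, 46.8 and 29.9 in WT (1.60 ± 0.29, limma adjusted p = 0.00050). Of all genes tested, 32.1, 37.1 and 50.1% were called against WT in ERF115OX, ERF114OX and ERF115-SRDX. MYB117 was below the minimum for testing. It averaged 11.8 normalized counts in WT and 0.69, 0.71 and 0 in ERF115OX, ERF114OX and ERF115-SRDX, without overlap with WT. MYB69 was also lower in both overexpression lines than in ERF115-SRDX, and MYB54 and MYB105 were lower in ERF114OX than in ERF115-SRDX (limma adjusted p = 0.022 and 0.045). MYB105 averaged only 9.63 normalized counts in ERF114OX and 21.6 in ERF115-SRDX, and these groups overlapped. Of all genes tested, 26.4% were called lower in ERF115OX than in ERF115-SRDX, and 26.0% in ERF114OX. Other settings gave up to 1 further call against WT in each line.

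Of 30 other regulators of the stem cell niche, 29 were tested. In ERF115OX 7 rose and 5 fell, in ERF114OX 7 rose and 3 fell, and in ERF115-SRDX 4 rose and 6 fell. The shares of all genes tested were 16.4, 17.5 and 23.4% higher and 15.7, 19.6 and 26.6% lower in these lines. Without WT 1, 4 rose and 3 fell in ERF115OX. CDF4, a differentiation factor that WOX5 represses in columella stem cells, rose by 0.68 ± 0.14 in ERF115OX and by 0.72 ± 0.14 in ERF114OX (limma adjusted p = 0.0040 and 0.0025), at 267 to 328 normalized counts in those libraries against 144 to 220.5 in WT. ACR4, a receptor kinase of the columella stem cell niche, fell by 0.66 ± 0.16 in ERF115OX and by 0.60 ± 0.16 in ERF115-SRDX (limma adjusted p = 0.0069 and 0.0058). Its fall of 0.57 in ERF114OX (limma adjusted p = 0.013) was lost without WT 1 (0.059). CLE40, the peptide that acts on columella stem cells through ACR4, had 0 to 2.12 normalized counts and was not tested.

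AGL42, a MADS-box gene expressed in the quiescent centre, had 310.4, 266 and 314 normalized counts in ERF115-SRDX against 40.8, 81.9 and 89.6 in WT, a rise of 2.13 ± 0.24 (limma adjusted p = 9.2e-06). In ERF114OX it had 112, 107 and 114 normalized counts and was also called higher, by 0.72 ± 0.24 (limma adjusted p = 0.032), but the call was lost in edgeR (adjusted p = 0.056), in a fit of only the groups compared (0.090) and without WT 1 or any one ERF114OX library (0.066 to 0.080). In ERF115OX, at 82.6, 89.5 and 72.3, it was not called. BRL3, a brassinosteroid receptor, rose by 0.84 ± 0.06 in ERF115-SRDX (limma adjusted p = 9.4e-08), to 2193 to 2405 normalized counts against 1251 to 1348 in WT. CYCD1;1 rose by 0.75 ± 0.08 in ERF114OX (limma adjusted p = 3.6e-05). PLT1, a stem cell factor of the root tip, averaged 399, 487.5 and 411.5 normalized counts in ERF115OX, ERF114OX and ERF115-SRDX and 491 in WT, with no call. PLT2 was called lower in ERF115OX by 0.53 ± 0.17 (limma adjusted p = 0.031), with overlap between the groups, and lost the call without any one of ERF115OX 2, ERF115OX 3, WT 1 or WT 2 (adjusted p = 0.070 to 0.13).

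The genes whose profile over the 12 libraries was most like that of each factor were found by Pearson's r on log2 values, as a description across libraries that share genotype. WOX5 was followed most closely by CDC2 (AT3G48750, r = 0.938) and CLV2 (r = 0.935), and BRAVO by AT1G26550 (r = 0.954) and SDH8 (r = 0.948). For SHR they were CYB-1 (r = 0.980) and scpl50 (r = 0.978), and for SCR AT5G48500 (r = 0.919) and SPK1 (r = 0.896). JKD was nearest to AT3G59340 (r = 0.965) and RKF1 (r = 0.947). The highest values belonged to MGP, with AT1G66930 (r = 0.990) and AT3G28510 (r = 0.988), and to NUC, with AT5G39090 (r = 0.987) and RAP2.9 (r = 0.980). AT3G28510 averaged 20.5 normalized counts in ERF115OX, 6.05 in ERF114OX and 1664 in the ERF115-SRDX line, against 77.5 in WT, a far wider range than that of MGP. RAP2.9 averaged 370 in ERF115OX, 258 in ERF114OX and 1.37 in the ERF115-SRDX line, against 81.7 in WT.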

How the data were processed

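Roots of 12 libraries were sequenced, 3 for each of 4 genotypes, and titles set the groups. For the ERF114 libraries the genotype label also names ERF115OX, and here too the title was used. In those libraries ERF115 averaged 6.23 normalized counts, against 36657 in ERF115OX. The values deposited by the authors are a signal: DESeq2 normalized read counts, each library scaled by its own size factor. Per the submitters' processing notes, Trimmomatic 0.39, HISAT2 2.2.1, SAMtools 1.11 and featureCounts of Subread 2.0.1 were used. Genome build, annotation, strand setting and filters were not given in the sources used here, so coordinates and sequences are left out. Without a strand setting, reads of a gene and an antisense partner cannot be told apart. Names and neighbours came from a TAIR10.1 annotation, which all 37884 genes matched, and no annotated gene overlaps any of the 7.

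Reads were recovered as multiples of 1 unit per library, and 1 of 316348 values above 0 was not whole at a relative tolerance of 1e-06. It was rounded. Depth was even, at 47242114 to 48343410 reads per library.

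Genes averaging 10 normalized counts or more were tested on log2 of the value plus 1, a scale on which changes of low genes come out too small, in limma 3.58.1 under R 4.3.3 with trended moderated variances, all 4 groups in 1 fit, two-sided. The method was tested on simulated data. The other settings were pseudocounts of 0.5 and 4, edgeR 4.0.16 or DESeq2 1.42.0 on recovered reads, quantile normalization, TMM scaling, a filter at a mean of 50 or none, fitting just the groups compared, a block for replicate number, each library left out, and 2 sets of libraries left out together. For gene lists these settings were added after the data were seen. The 7 genes and all lists were chosen with earlier results of these data known. The 7 genes were always named, together with the 3 called genes of smallest p per list and comparison, known targets, partners and paralogs, and the 2 genes most like each factor. Figures were made with Python 3.11.15 and matplotlib 3.10.9.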

Additional observations from a re-analysis of the deposited data

How the results depend on the processing

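Counts below run through 6 comparisons: each of ERF115OX, ERF114OX and then ERF115-SRDX against WT, ERF115OX against ERF114OX, and ERF115OX and ERF114OX each against ERF115-SRDX. Here limma called 7499, 8674, 11707, 1613, 13097 and 13074 genes, edgeR 7621, 8720, 11557, 1608, 12996 and 12833, and DESeq2 8055, 8917, 11767, 2380, 12988 and 12859. For ERF115OX against ERF114OX, a fit of only the groups compared called 917 genes, 739 higher and 178 lower (1116 and 497 in the fit of all groups), and leaving out 1 library gave 600 to 2204. Quantile normalization moved the ERF114OX split against WT to 5136 higher and 3724 lower, against 4093 and 4581 as reported. Median shifts of all genes under other scalings were below 0.1.

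Counts of the 7 genes called stayed within 1 of the reported value, except ERF115OX against WT with quantile normalization, where 6 were called. Of the changes of single factors under the 24 other settings, 988 kept direction and side of the threshold, 6 gained a call, 5 lost one and 9 reversed. The reversals were all of uncalled differences near 0. For ERF115OX against ERF114OX, BRAVO ran from -0.18 to 0.049 with 1 library left out, above 0 without ERF115OX 1 and at 0.028 without ERF114OX 1 (also when ERF115-SRDX 2 was left out with it), SHR ran from -0.12 to 0.016, above 0 without ERF114OX 2, and NUC from -0.00035 to 0.12, below 0 without ERF115OX 3. For ERF114OX against ERF115-SRDX, SCR was -0.0044 with TMM, -0.0047 in edgeR, -0.0016 in DESeq2, and from -0.0014 (without ERF115-SRDX 3) to 0.044 with 1 library left out. SCR passed for ERF115OX against ERF115-SRDX without ERF115OX 1 (-0.17, adjusted p = 0.035), and WOX5 did not pass for ERF114OX against ERF115-SRDX without ERF114OX 1 and ERF115-SRDX 2 (0.65, adjusted p = 0.10). The cause of these changes was not tested.

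Replicate numbers did not consistently pair the libraries. Of 18 same-numbered pairs, 4 correlated above 0.1 (range -0.28 to 0.44) and 5 correlated best with their own number. The highest values, 0.44 and 0.38, were those of ERF114OX with ERF115-SRDX in replicates 1 and 2, which matched best by number. With the number as a block, 7192, 8400, 11562, 1490, 12947 and 12910 genes were called, and 4, 4, 3, 0, 5 and 5 of the 7 factors. WOX5, at 26 to 87 reads per library, had the fewest reads of the 7.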

Other observations

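Genes next to the 7 factors in the TAIR10.1 annotation gave values that the comparisons do not use, as group means of normalized counts. GRXS13, a glutaredoxin gene that follows MGP on the same strand, averaged 5425 in ERF115OX, 3149 in ERF114OX and 266 in the ERF115-SRDX line, against 4396 in WT, while MGP was highest in ERF115-SRDX. AT4G09535, annotated as an antisense RNA beside SHR on the opposite strand, averaged 318, 331 and 272 in ERF115OX, ERF114OX and ERF115-SRDX, against 249 in WT. AT3G54210, beside SCR on the opposite strand, averaged 2015, 1800.3 and 767 in the same lines, against 3655 in WT. That is also the order of the photosynthetic genes, whose mean log2 level was 13.7, 13.5 and 9.54, against 14.8 in WT. The part of shoot tissue was not tested. The neighbouring genes were picked after their values were seen, and none of the differences was tested here.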
